A study of Mus musculus with 18 samples.

Results

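The genes described here are 10 members of hepatic bile acid synthesis, its feedback control and bile acid transport, measured in the livers of 18 mice. They are the synthetic enzymes Cyp7a1, Cyp8b1, Cyp27a1, Cyp7b1 and Cyp39a1, the conjugating enzyme Baat, the nuclear receptors Nr0b2 and Nr1h4, and the transporters Slc10a1 and Abcb11. A probe set was taken as a member when the platform annotation gave it exactly 1 gene symbol and that symbol was on the list, which gave 16 probe sets for the 10 genes, out of 18193 genes with such a probe set. The mice were males of a strain spelled C56BL/6J in the sample records and C57BL/6J in the growth protocol. They arrived at 4 weeks of age and from 5 weeks received AIN93G diet for 20 weeks, either unsupplemented (control) or containing 0.05% or 1% quercetin, a dietary flavonol. The labels name no introduced allele. Each diet had 12 mice housed 3 per cage, and arrays were made from 6 mice per diet, each hybridised with amplified RNA from the liver of 1 mouse. The labels give neither the cage of each mouse nor the hour of killing, so cage and hour could not be terms in a model. The comparisons ask whether the quercetin content of the diet was accompanied by different liver levels of these transcripts.

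Bile acids are made from cholesterol in hepatocytes. In the classical pathway Cyp7a1, the rate-limiting hydroxylase, acts first and Cyp8b1 directs the product towards cholic acid. In the alternative pathway Cyp27a1 oxidises the side chain and Cyp7b1 hydroxylates the resulting oxysterols, and Cyp39a1 is a further oxysterol hydroxylase. Baat joins finished bile acids to amino acids. Nr1h4 encodes FXR, the bile acid receptor, and Nr0b2 encodes SHP, a corepressor that FXR induces and that represses Cyp7a1 and Cyp8b1. Slc10a1 encodes NTCP, which takes bile acids up from the blood, and Abcb11 encodes BSEP, which exports them into bile. Several of these genes are also known to follow the daily rhythm of feeding and of the clock.

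Upstream sequences were matched by symbol to RefSeq promoter records of assembly GRCm38.p6, which held 6 of the 10 genes (Cyp8b1, Cyp27a1, Nr0b2, Nr1h4, Slc10a1 and Abcb11). The 250 bases before the start site of Nr0b2 and of Abcb11 are shown because both are textbook FXR targets, yet Nr0b2 varied far more between these mice than Abcb11 (8.24-fold against 1.56-fold from the lowest to the highest mouse). Each is written 5′ to 3′ on the strand of the gene, at chr4:133553126-133553375 on the plus strand for Nr0b2 and at chr2:69342617-69342866 on the minus strand for Abcb11. Capitals mark a match to the E-box CACGTG in Nr0b2 and to the nuclear receptor half-site AGGTCA, here on the opposite strand, in Abcb11.
Nr0b2: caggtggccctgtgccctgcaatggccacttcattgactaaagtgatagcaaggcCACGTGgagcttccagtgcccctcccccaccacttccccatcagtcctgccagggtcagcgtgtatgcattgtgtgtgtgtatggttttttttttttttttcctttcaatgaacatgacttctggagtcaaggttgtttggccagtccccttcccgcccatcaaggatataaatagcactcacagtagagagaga
Abcb11: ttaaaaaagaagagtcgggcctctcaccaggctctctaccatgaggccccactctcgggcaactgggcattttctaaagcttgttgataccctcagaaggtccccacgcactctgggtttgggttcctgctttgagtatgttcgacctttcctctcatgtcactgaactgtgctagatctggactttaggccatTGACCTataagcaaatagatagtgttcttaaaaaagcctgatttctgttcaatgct
The E-box, the binding motif of clock transcription factors, lay at bases -195 to -190 from the start of Nr0b2 and was in 6.02% of 32851 promoter windows of this length, searched on both strands. The half-site lay at -56 to -51 in Abcb11, was also matched in the windows of Nr1h4 and of 1 of the start sites of Slc10a1, and was in 14.0% of all windows. No window of the 6 genes held an exact match to AAGGTCA, the core recognised by LRH-1 (4.08% of all windows, each also holding the half-site). The inverted repeat AGGTCANTGACCT (0.00609% of all windows) and the direct repeat AGGTCANAGGTCA (0.0335%) were not matched exactly either, and both are rare in any promoter. Sites with a mismatch were not searched. In Abcb11 the letters aggccatTGACCT, which include the marked half-site, differ from the inverted repeat in 1 letter. That near match was no part of the search, so its share over all windows is not known. Nr0b2 and the other windows were not searched for the like, so the promoters cannot be compared in it. A match is a description of letters only.

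The values are microarray intensities, printed here as log2 of the quantile-normalised intensity plus 16, so that 1 unit is a 2-fold difference of that sum and changes of dim genes are understated. The deposited arrays differed in overall brightness, with median intensities from 14.2 to 21.9. After scaling, the mean correlation of an array with the others lay between 0.973 and 0.982, and the lowest was 1% replicate 1. The 6 hepatocyte markers on the array were above the 98.7th percentile of all probe sets, while the gall bladder and bile duct markers Cftr and Muc1 were near the floor of the scale (means 4.23 and 4.23) and Krt19 at 4.93. Averaged over the tested genes of each list, the hepatocyte markers stood at 13.08 to 13.29 in all 18 mice. The bile duct markers, without the untested Cftr and Muc1, stood at 4.97 to 5.68, the brightest being Sox9 at a mean of 5.90. Of the other cell types, endothelial markers had higher means at 0.05% quercetin than in controls in 6 of 6 genes, 4 of them at an unadjusted p under 0.05 (beside 5.43% of all genes tested), with per-mouse list means of 7.67 to 7.79 against 7.33 to 7.65. Neutrophil markers were lower there in 3 of 3 tested genes, with list means of 5.03 to 6.02 against 5.43 to 7.97. In 1% against 0.05% the same 3 were higher (median 1.28), with S100a8 at 1.64 and S100a9 at 1.28 and list means of 5.98 to 7.48 at 1%. Both were at an unadjusted p under 0.05, beside 9.07% of all genes, as were Stab2 and Cdh5 of endothelium at -0.19 and -0.26. Of the endothelial list 2 markers were higher and 4 lower in that comparison. In 1% against control, single markers at an unadjusted p under 0.05 (beside 8.8% of all genes) were Clec4g of endothelium at 0.30, Des of stellate cells at -0.43, Cela1 of pancreas at -0.58 and Cdx2 of intestine at -0.34. Over their lists, 5 endothelial markers were higher and 1 lower, and 2 stellate markers were higher and 4 lower. For pancreas 0 were higher and 2 lower, and for intestine 2 were higher and 1 lower. Cpa1 of pancreas and Vil1 and Fabp6 of intestine were too dim to be tested (means 4.10, 4.40 and 4.25). Prss2, Cdx2 and Slc5a1 of these lists were little brighter (4.99, 4.83 and 5.11), while Cela1 stood at 8.57 and Fabp2 at 10.62. None of the tested markers passed after adjustment. The part of any of these lists in the values below was not tested. In whole liver, fewer cells of a type and less RNA per cell cannot be told apart.

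None of the 10 genes passed the adjusted threshold of 0.05 in any comparison of diets (limma, Benjamini-Hochberg over 12880 genes). In 1% quercetin against control, 5 members had higher and 5 lower means, and the median log2 change was 0.0003, beside -0.002 over all genes tested. That split depended on the scaling, with 2 higher and 8 lower on the values as deposited and 3 higher and 7 lower after a median shift. Cyp39a1 was the only member at an unadjusted p under 0.05 there, beside 8.8% of all genes (1134 of 12880), and the only member whose 6 and 6 mice did not overlap, beside 0.598% of all genes. The adjusted threshold was passed by 0.00776% of genes, which is 1 gene, Tead1, named after its values were seen (0.61 ± 0.08 SE, adjusted p = 0.0122). In 0.05% quercetin against control, 7 members had higher and 3 lower means, with a median of 0.06 beside -0.01 over all genes, and 5 were higher and 5 lower under either other scaling. No member was at an unadjusted p under 0.05 there, beside 5.43% of all genes, none had mice that did not overlap, beside 0.326%, and no gene at all passed the adjusted threshold (0%). In 1% against 0.05%, 3 members had higher and 7 lower means, with a median of -0.06 beside 0.005. Cyp39a1 was again the only member at an unadjusted p under 0.05, beside 9.07% of all genes, no member had mice that did not overlap, beside 0.675%, and again no gene passed the adjusted threshold (0%). The first pair of comparisons share the control mice. Both comparisons that gave Cyp39a1 an unadjusted p under 0.05 share the 6 mice at 1%, so they are not separate observations. An F-test over the 3 diets, on the same mice, passed no member either, beside 0.00776% of all genes. Cyp39a1 was the only member at an unadjusted p under 0.05 in it (0.000604, adjusted 0.291, limma), beside 8.56% of all genes.

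**Figure D1:**
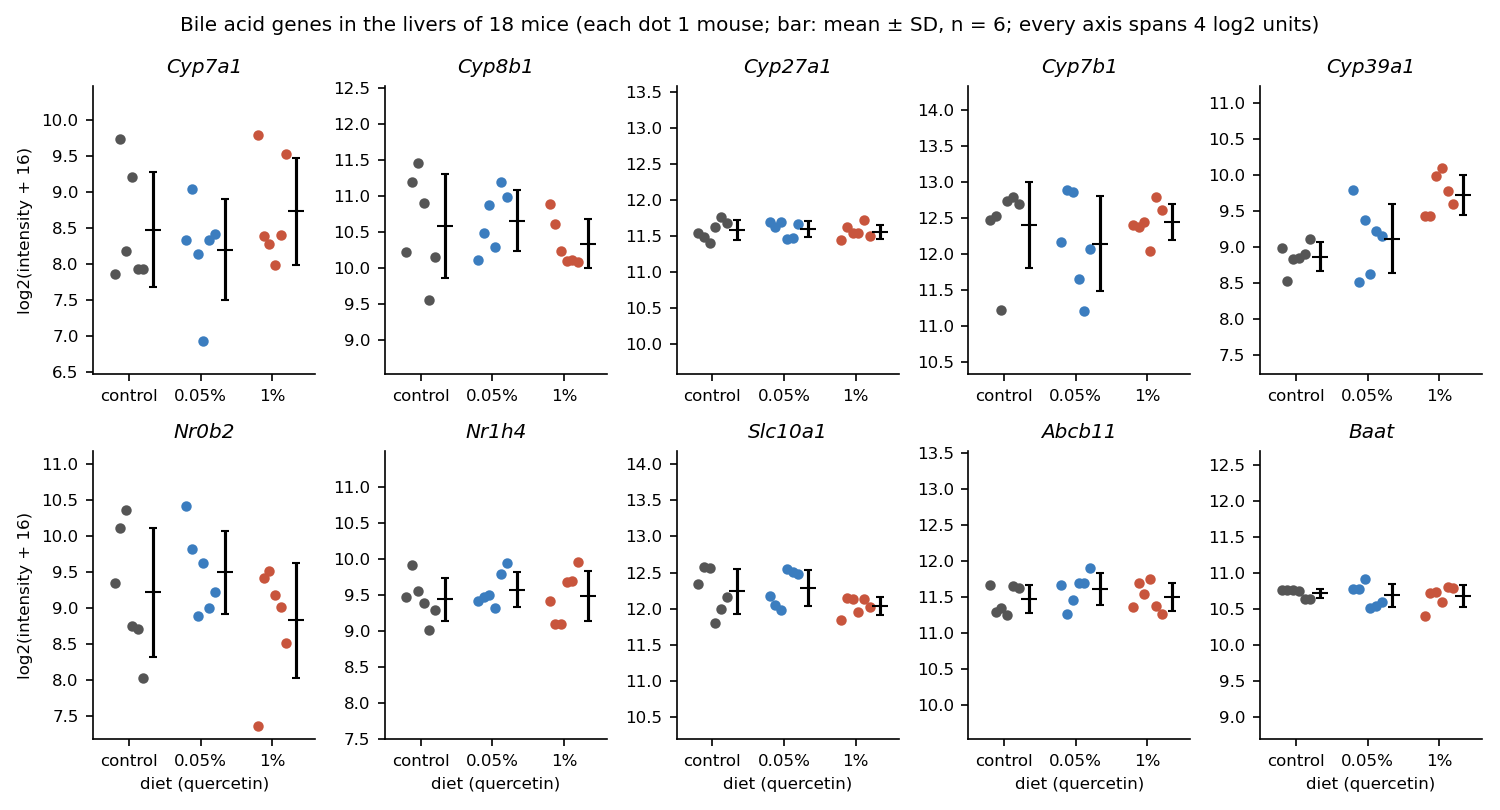
Level of each of the 10 genes in every mouse, as log2 of the normalised intensity plus 16, by diet; dots are mice in order of replicate number, and the bar to the right of each group is the mean ± SD (n = 6). Every panel spans the same 4 log2 units, so the scatter of Cyp7a1 and Nr0b2 can be set against the tight values of Cyp27a1 and Baat, and the 6 Cyp39a1 values at 1% lie above all 6 controls.

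Of the 10 members, Cyp39a1 had the largest difference between 1% quercetin and control, with a higher level at 1%. The lowest, median and highest control mouse stood at 8.52, 8.88 and 9.11, the 0.05% mice at 8.51, 9.19 and 9.79, and the 1% mice at 9.43, 9.68 and 10.10. All 6 mice at 1% were above all 6 controls, whereas the 0.05% mice spread across both, with 4 above every control and 1 below every control. The means were 8.87 ± 0.20, 9.12 ± 0.48 and 9.72 ± 0.28 (SD, n = 6 each). The 1% mean exceeded the control mean by 0.85 ± 0.18 (SE), a 1.81-fold difference with a 95% interval of 1.38 to 2.36. By unadjusted p (0.000193, limma) this ranked 11th of 12880 genes, and its adjusted p of 0.210 missed the threshold. The difference lay between 0.78 and 0.91 when any 1 mouse was left out, and the adjusted p between 0.111 and 0.558 over all alternatives. Against 0.05% quercetin the 1% mean was higher by 0.60 ± 0.18 (interval 0.22 to 0.99, adjusted p = 0.377), with 6 of 6 mice above the 0.05% mean. The 0.05% mean stood 0.25 above control (interval -0.14 to 0.63, adjusted p = 0.952). Cyp39a1 had a single probe set on the array, so no second measurement of it within the array was available.

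**Figure D2:**
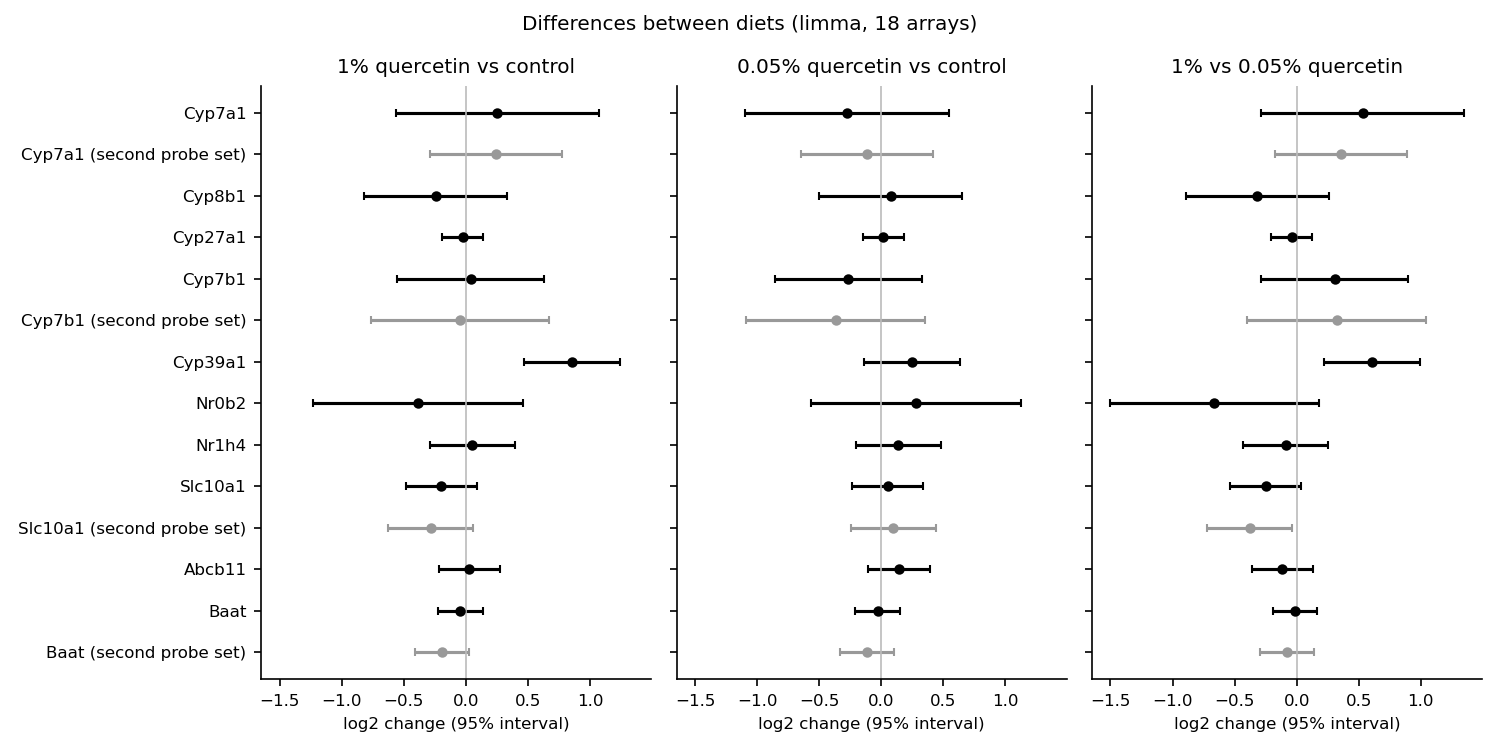
Difference in log2 level between diets for the 14 member probe sets above the filter, with 95% intervals from limma over 18 arrays; black points are the brightest probe set of a gene and grey points the second. The interval of Cyp39a1 lies above 0 in both comparisons with 1% quercetin, and that of the second Slc10a1 probe set lies below 0 in 1% against 0.05%.

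Cyp7a1 varied widely among mice on the same diet, and the diets overlapped. Control mice ran from 7.87 through a median of 8.06 to 9.74, the 0.05% mice from 6.93 through 8.34 to 9.05, and the 1% mice from 7.99 through 8.40 to 9.79. In each diet a minority stood high: control replicates 2 and 4, 0.05% replicate 2, and 1% replicates 1 and 6 were all above 9, and the lowest mouse of all was 0.05% replicate 4. From the lowest to the highest mouse the level differed 7.27-fold. The mean at 1% was 0.25 above control (interval -0.57 to 1.07, adjusted p = 0.893) and 0.53 above 0.05% (interval -0.29 to 1.35, adjusted p = 0.723). The mean at 0.05% differed from control by -0.28 (interval -1.10 to 0.54, adjusted p = 0.967). As fold changes, the interval for 1% against control ran from 0.676 to 2.11. Single mice moved these differences: 1% against control was 0.04 without 1% replicate 1, the highest mouse, and 0.51 without control replicate 2, the highest control. For 0.05% against control they ran from -0.45 without 0.05% replicate 2 to -0.02 without 0.05% replicate 4, and for 1% against 0.05% from 0.28 without 0.05% replicate 4 to 0.70 without 0.05% replicate 2. The second probe set was dimmer, at a mean of 6.38, followed the first over mice (r = 0.84, 18 mice, diet means removed) and gave 0.24 for 1% against control.

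Cyp8b1, the enzyme that sets the share of cholic acid, showed a similar scatter in control mice. Its values were 9.56, 10.56 and 11.45 (lowest, median, highest) in controls, 10.11, 10.68 and 11.19 at 0.05%, and 10.08, 10.17 and 10.89 at 1%. Of the 1% mice, 4 lay within 10.08 to 10.23, below the middle of the other diets, but every one was inside the control range. The difference of 1% from control was -0.24 (interval -0.82 to 0.33, adjusted p = 0.836), that of 1% from 0.05% was -0.32 (interval -0.90 to 0.26), and that of 0.05% from control was 0.07 (interval -0.50 to 0.65). With 1 mouse left out, 1% against control ran from -0.45 without control replicate 5 to -0.07 without control replicate 3.

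The enzymes of the alternative pathway behaved unlike each other. Cyp27a1 was the steadiest member: all 18 mice lay between 11.40 and 11.76, a 1.29-fold range, with means of 11.58, 11.60 and 11.56. Its interval for 1% against control ran from -0.19 to 0.14, or 0.876 to 1.10-fold, which bounds any difference between these diets more closely than for any other member. For Cyp27a1 at 0.05% against control the value of 0.01 turned to -0.03 on the values as deposited and to -0.06 after a median shift. Its second probe set lay below the filter, at a mean of 4.32. Cyp7b1 varied 3.19-fold between mice. Its lowest, median and highest values were 11.21, 12.61 and 12.79 in controls, 11.21, 12.12 and 12.88 at 0.05%, and 12.04, 12.42 and 12.79 at 1%. The diets overlapped, and the low values belonged to control replicate 3 (11.21) and to 0.05% replicates 5 and 4 (11.21 and 11.65), with no 1% mouse below 12.04. The Cyp7b1 mean at 1% differed from control by 0.04 (interval -0.55 to 0.63), a sign that turned to -0.07 on the values as deposited and to -0.02 after a median shift. At 0.05% it stood at -0.27 against control (interval -0.86 to 0.32, adjusted p = 0.965), -0.51 without control replicate 3 and -0.08 without 0.05% replicate 5. A second Cyp7b1 probe set followed the first over mice (r = 0.99, 18 mice, diet means removed). It gave -0.05 for 1% against control, of the opposite sign, -0.37 for 0.05% against control and 0.32 for 1% against 0.05%. Another lay below the filter, at a mean of 4.33.

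Baat was nearly flat. Its brightest probe set ran from 10.64 to 10.77 in controls, 10.52 to 10.92 at 0.05% and 10.41 to 10.81 at 1%, and the control SD of 0.06 was the smallest of any member in any diet. The difference of 1% from control was -0.04 (interval -0.22 to 0.14, adjusted p = 0.921). The second Baat probe set gave -0.19 (interval -0.41 to 0.03, adjusted p = 0.667), with 5 of 6 mice at 1% below the control mean. These probe sets agreed little over mice (r = 0.28), so the small differences of Baat depended on which was read.

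Nr0b2 had the widest spread of the 10 genes. Its lowest, median and highest values were 8.03, 9.05 and 10.36 in controls, 8.89, 9.42 and 10.41 at 0.05%, and 7.37, 9.09 and 9.51 at 1%. The diets overlapped throughout, and the lowest mouse of all, 1% replicate 1, was the one with the highest Cyp7a1. The array of that mouse also had the lowest median intensity (14.2) and the lowest mean correlation with the others (0.973). The highest and lowest mice differed 8.24-fold. The difference of 1% from control was -0.39 (interval -1.23 to 0.46, adjusted p = 0.819), -0.09 without 1% replicate 1 and -0.62 without control replicate 6. Against 0.05% it was -0.66 (interval -1.51 to 0.18, adjusted p = 0.659), or -0.37 without that mouse. At 0.05% the mean stood 0.28 above control (interval -0.57 to 1.12), 0.04 without control replicate 6 and 0.51 without control replicate 3. Nr1h4, the receptor upstream of Nr0b2, stayed between 9.02 and 9.95 in all mice. Its medians were 9.42, 9.48 and 9.54 for control, 0.05% and 1%, and the ranges of the diets overlapped. The difference of 1% from control was 0.05 (interval -0.29 to 0.39, adjusted p = 0.953), and turned to -0.01 on the values as deposited.

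The uptake transporter Slc10a1 was lower in the 1% mice than the mean of either other diet in 6 of 6 mice, without passing the test. Its lowest, median and highest values were 11.81, 12.25 and 12.57 in controls, 11.98, 12.33 and 12.55 at 0.05%, and 11.84, 12.08 and 12.15 at 1%. Controls and 0.05% mice each held a high group above 12.3, which no 1% mouse reached, while their low mice overlapped the 1% range. The difference of 1% from control was -0.20 ± 0.14 (SE; interval -0.48 to 0.09, adjusted p = 0.697) and that from 0.05% was -0.25 ± 0.14 (interval -0.53 to 0.03, adjusted p = 0.602). The second probe set, at r = 0.99 with the first, gave -0.28 and -0.38, the latter at an unadjusted p of 0.0328 and an adjusted p of 0.492 (limma over all probe sets). At 0.05% against control Slc10a1 stood at 0.05, which turned to -0.01 as deposited and to -0.04 after a median shift. The export pump Abcb11 lay between 11.25 and 11.90 in all mice, with medians of 11.48, 11.68 and 11.46. At 0.05%, 4 of 6 mice were above every control, yet the mean difference of 0.14 (interval -0.10 to 0.39, adjusted p = 0.952) did not pass. The 1% mean differed from control by 0.03 (interval -0.22 to 0.27), which turned to -0.05 as deposited and to -0.003 after a median shift.

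The members differed widely in their spread between mice of 1 diet. The residual SD of Nr0b2 (0.77) was larger than that of 99.1% of genes tested, that of Cyp7a1 (0.75) larger than 98.9%, Cyp7b1 (0.53) larger than 96.6% and Cyp8b1 (0.52) larger than 96.3%. At the other end, Cyp27a1 (0.12) exceeded 7.52% of genes and Baat (0.13) 11.8%. Between them stood Cyp39a1 (82.7%), Nr1h4 (73.9%), Slc10a1 (55.6%) and Abcb11 (40.3%). With 1 added in place of 16, which widens the scatter of dim genes, no member lay above the 95th percentile, and Nr0b2 stood at 92.7% and Cyp7a1 at 92.3%. Among genes with a mean above 8 the same 4 members stood at 95.7% to 98.7%, and with 1 added at 95.5% to 98.6%. For Cyp7a1 and Cyp7b1 the scatter was shared by both probe sets. This is a description without a test.

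**Figure D3:**
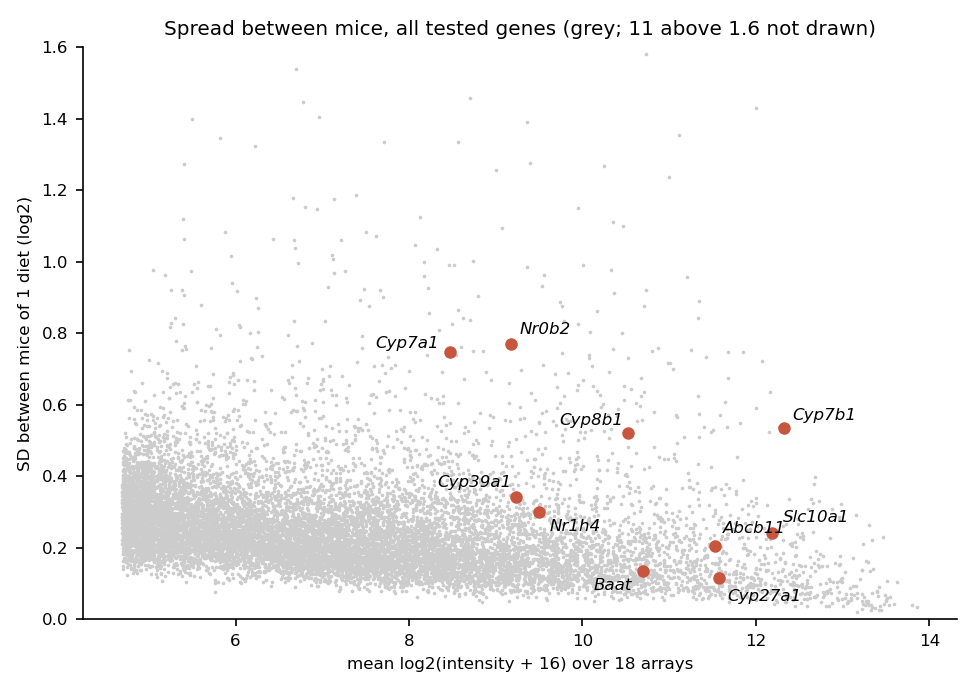
SD between mice of the same diet (residual SD, log2) against mean log2 level for the 12880 genes tested (grey), with the 10 members in red. Nr0b2, Cyp7a1, Cyp8b1 and Cyp7b1 stand above most genes of their level, and Cyp27a1 and Baat among the steadier ones.

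Whether the members moved together from mouse to mouse was examined on deviations from the diet mean, for 45 pairs of members and 20 pairs of a member with Dbp or Nr1d1, outputs of the clock. None of the 65 relations passed after adjustment over all of them (permutation within diets, two-sided), and 7 had an unadjusted p under 0.05. The largest was between Cyp27a1 and Cyp7b1 (r = 0.71, rho = 0.65, permutation p = 0.00213, adjusted 0.138). It was positive within each diet (0.80, 0.77 and 0.44 for control, 0.05% and 1%) and 0.61 without the 2 mice farthest out, but only 0.25 on the values as deposited. Cyp7a1 was low where Abcb11 was high (r = -0.67, rho = -0.66, permutation p = 0.00657, adjusted 0.214), negative in every diet (-0.84, -0.39 and -0.79) and -0.63 without the 2 farthest mice. Cyp7b1 and Slc10a1 opposed each other overall (r = -0.66, rho = -0.66, permutation p = 0.0125, adjusted 0.270; -0.56 without the 2 farthest mice), in controls (-0.65) and at 0.05% (-0.90) but not at 1% (0.45). The other pairs of members and clock outputs under that unadjusted p were Cyp8b1 with Cyp27a1 (r = -0.57, -0.31 without the 2 farthest mice) and Nr1h4 with Dbp (r = 0.51, 0.25 without them), beside the relations with Nr1d1 given next.

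The relations of Nr0b2 with Cyp7a1, Cyp8b1, Nr1h4 and Abcb11 were smaller than these. Nr0b2 against Cyp7a1 gave r = -0.14 (rho = -0.06, permutation p = 0.608, adjusted 0.790), made of 0.36 in controls, 0.07 at 0.05% and -0.89 at 1%, and it was 0.10 without 1% replicate 1. Nr0b2 against Cyp8b1 gave r = 0.09 (rho = 0.13, permutation p = 0.775, adjusted 0.868), with 0.74 in controls and -0.89 and -0.56 in the quercetin diets. Nr0b2 against its inducer Nr1h4 gave 0.05 and against Abcb11, the other FXR target, -0.02 (adjusted 0.907 and 0.953, permutation). Cyp7a1 and Cyp8b1 were positive in each diet (0.61, 0.26 and 0.47; r = 0.47, rho = 0.59, permutation p = 0.0797, adjusted 0.370), with 0.29 without the 2 farthest mice. Against the clock outputs, Slc10a1 was higher where Nr1d1 was higher (r = 0.54, rho = 0.54, permutation p = 0.0269, adjusted 0.364; 0.52 without the 2 farthest mice) and Cyp7b1 opposed it (r = -0.46, adjusted 0.364), while Cyp7a1 gave 0.04 with Dbp and -0.21 with Nr1d1. Nr1d1 was dim, with means of 4.98, 6.03 and 5.05 for control, 0.05% and 1%, where the filter stood at 4.69. With 6 mice per diet, a within-diet r is loosely determined.

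**Figure D4:**
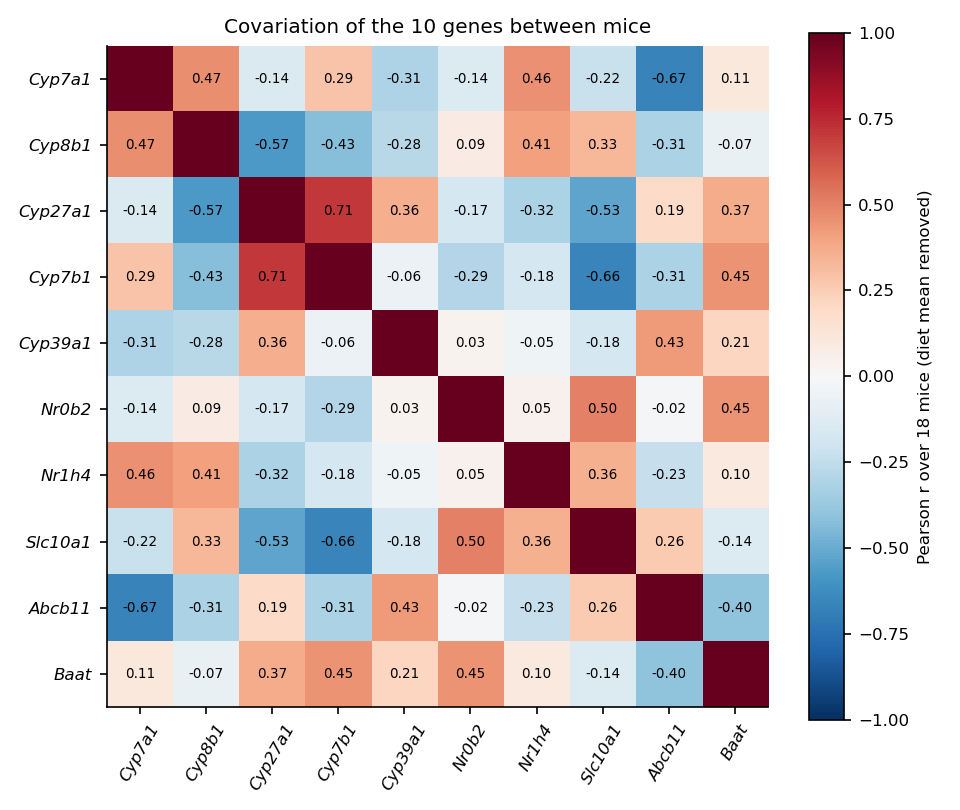
Pearson r between the 10 genes over 18 mice, computed on deviations from each diet's mean, with the value in each cell. The strongest are Cyp27a1 with Cyp7b1 (0.71), Cyp7a1 with Abcb11 (-0.67) and Cyp7b1 with Slc10a1 (-0.66); none passes after adjustment.

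The 10 members were set against the acute phase genes of the same mice, and Slc10a1 and Cyp7b1 are described most fully. The mean of 12 acute phase genes (among them Saa1, Orm1 and Lcn2, plasma proteins that hepatocytes make in inflammation) fell into separate clusters, with 12 mice from 9.55 to 11.25 and 6 from 12.09 to 12.49. The 6 were control replicates 4 and 5, 0.05% replicates 2 and 3, and 1% replicates 5 and 6, which is 2 mice of each diet. Relations were therefore read within clusters, a choice made after seeing the data, for 10 members in each. Diet means were kept and mice were permuted without regard to diet, except where diet means are said to be removed. Within the 12 mice, where Slc10a1 ran from 11.84 to 12.57, it was lower where the acute phase mean was higher (r = -0.81, permutation p = 0.00199, adjusted 0.0398 over 20 relations). The rank correlation was -0.71 (adjusted 0.256), and r was -0.83 without the 2 farthest mice. This relation did not pass with diet means removed (r = -0.80, permutation p = 0.00621, adjusted 0.124), as deposited (-0.57, adjusted 0.225) or after a median shift (-0.67, adjusted 0.122). With 1 of the 12 mice left out, r lay between -0.88 and -0.78, and the adjusted p was over 0.05 without any 1 of control replicates 1 and 3, 0.05% replicates 4, 5 and 6, and 1% replicates 1, 2, 3 and 4 (up to 0.119). Cyp7b1 in the same mice gave r = 0.69 (rho = 0.65, permutation p = 0.0139, adjusted 0.139), and 0.57 with diet means removed (permutation p = 0.249, adjusted 0.497). Of the other members in the 12 mice, Nr0b2 gave r = -0.61 (permutation p = 0.0349, adjusted 0.233), but -0.06 without the 2 farthest mice. Nr1h4 gave r = -0.52 (permutation p = 0.0855, adjusted 0.428). Within the 6 mice, where Slc10a1 lay between 11.81 and 12.14, neither Slc10a1 nor Cyp7b1 showed a relation at this number (r = 0.23 and 0.01, exact permutation p = 0.604 and 0.989).

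**Figure D5:**
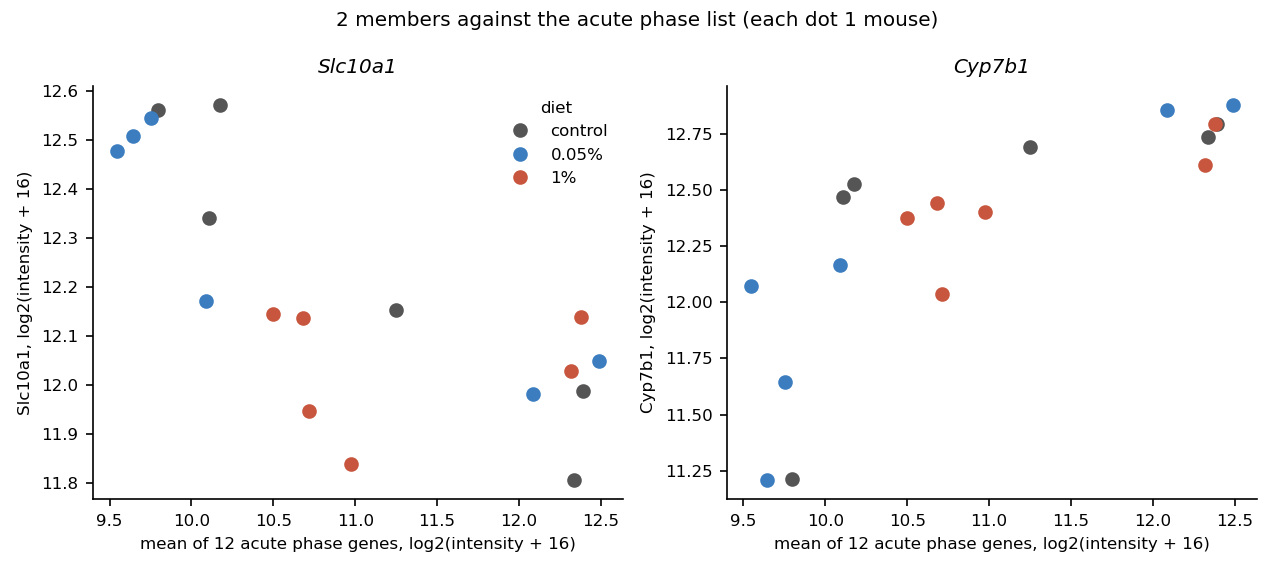
Log2 level of Slc10a1 (left) and Cyp7b1 (right) in each mouse against the mean log2 level of 12 acute phase genes, coloured by diet. Slc10a1 is high only among the mice with a low acute phase mean, Cyp7b1 is low only there, and 6 mice stand apart at 12.09 or more.

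By diet, the acute phase mean ran from 9.80 to 12.39 in controls, 9.55 to 12.49 at 0.05% and 10.50 to 12.38 at 1%. None of its 12 genes passed in any comparison, and in 1% against 0.05% 11 of 12 had higher means (median 0.68, beside 0.005 over all genes), and the smallest p belonged to Il1r1 (1.24) and Fgb (0.17). Against control, Fgb stood at 0.17 and Il1r1 at 0.95 at 1%, and Orm1 at -0.28 and Saa1 at -0.92 at 0.05%. With the acute phase mean as a covariate, added after seeing the data, Slc10a1 at 1% stood at -0.16 against control and -0.14 against 0.05%, against -0.20 and -0.25 without it. Cyp7b1 at 1% against 0.05% went from 0.30 to 0.06, and Cyp39a1 at 1% against control stood at 0.86 (adjusted p = 0.111). The covariate took the mice of both clusters together, although the relations above were read within clusters. Whether the acute phase mean accounts for any part of these diet differences was not tested.

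The other genes listed with the pathway gave no call after adjustment in any comparison. Of 15 further listed enzymes, 5 had higher and 10 lower means at 1% than in controls, with a median of -0.01 beside -0.002 over all genes. Of them 1, Hao1, was at an unadjusted p under 0.05, beside 8.8% of all genes. Hao1, a peroxisomal glycolate oxidase and not an enzyme of bile acid synthesis, was at -0.15 (unadjusted p = 0.0480, limma). Hsd17b10 was at -0.24. Cyp2c70, which makes muricholic acids in mice, was at -0.46 (adjusted p = 0.655) in 1% against control and -0.33 in 0.05% against control, where Hsd17b4, of side chain shortening, stood at 0.08. Hsd3b7, which follows Cyp7a1 and Cyp7b1, was at -0.42 in 1% against 0.05% (unadjusted p = 0.0273, adjusted 0.501), and Acox2 at -0.25. Of 14 further transporters, 8 were higher and 6 lower at 1% than in controls (median 0.005, beside -0.002 over all genes). Of these, 2 higher and 2 lower ones were at an unadjusted p under 0.05, beside 8.8% of all genes. Slco1b2, a sinusoidal carrier of organic anions, was at -0.26 ± 0.08 (SE) and Abcg5, a partner in cholesterol export into bile, at -0.41 ± 0.13 (adjusted p = 0.386 each, limma). The 2 higher ones, named after their values were seen, were Abcc4, a basolateral export pump, at 0.45 ± 0.17 and Abcb4, the phospholipid exporter of bile, at 0.24 ± 0.11 (adjusted p = 0.452 and 0.524). Abcg5 and its partner Abcg8 were also lower in 1% than in 0.05%, at -0.45 (adjusted p = 0.372) and -0.44 (adjusted p = 0.468). At 0.05% against control 10 transporters were higher and 4 lower (median 0.11, beside -0.01 over all genes). Among them Abcc3, another basolateral export pump, was at 0.43 and Slco1b2 at -0.13.

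Among 13 tested regulators, 7 were higher and 6 lower at 1% than in controls (median 0.01, beside -0.002 over all genes). Fgfr4, the hepatocyte receptor for the intestinal hormone that represses Cyp7a1, was at -0.40 ± 0.13 (SE) against control and -0.41 against 0.05% (adjusted p = 0.386 and 0.394, limma), and Nfil3 was at 0.42 against control. At 0.05% against control Prox1, a corepressor of Cyp7a1, was at 0.69 (adjusted p = 0.874) and Klb, the coreceptor of Fgfr4, at 0.38. In 1% against 0.05% Prox1 was at -0.63. Of 12 tested clock genes, 5 were higher and 7 lower at 1% than in controls (median -0.14, beside -0.002 over all genes). Of these, 3 lower and 0 higher ones were at an unadjusted p under 0.05, beside 8.8% of all genes. They were Per1 at -0.66 (adjusted p = 0.404, limma), Per2 at -0.76 and Hlf, named after its values were seen, at -0.33. In 0.05% against control Per1 was at -0.90 (adjusted p = 0.601, limma) and Nr1d1 at 1.05 (adjusted p = 0.817). In 1% against 0.05% Nr1d1, which was near the filter in controls and at 1%, was at -0.98 and Hlf at -0.27. Their part in the values of Cyp7a1, Cyp8b1 and Nr0b2 was examined only through the relations with Dbp and Nr1d1 given above.

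The genes most like 4 members over the 18 mice, by Pearson r of deviations from the diet mean, included no member. For Cyp7a1 they were Hacd3 (r = 0.82), Rnf213, Tcirg1, A4gnt and Irf2bpl (0.75). For Cyp8b1 they were Sp110 (0.94), Lars2, Cd209a, Tlx2 and Slc26a1 (0.77). For Nr0b2 they were Tcf21 (0.85), Mief2, Slf2, Grb7 and Bmt2 (0.79), and for Cyp27a1 Ddx3x (0.90), Ranbp9, Tacc1, Rsph3a and Plcxd2 (0.85). They were the highest of 12880 genes and carry no test.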

How the data were processed

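The deposited values are linear intensity values, 1 per probe set and array (45101 probe sets, 64 of them controls), from biotin-labelled RNA made with a 3′ kit per the labels' protocols; no source used here names the signal software or the scaling. The platform annotation gave 1 symbol to 34945 probe sets, several to 932 and none to 9160, and Entrez numbers matched 34741 to a RefSeq table of GRCm38.p6 with 0 symbols changed. Arrays were quantile normalised without controls, 16 was added and log2 taken. A gene was its brightest single-symbol probe set, and genes above the 40th percentile (log2 4.69) were tested: 12880 genes and 14 of 16 member probe sets. limma 3.58.1 in R 4.3.3 was fitted to 3 diet means over 18 arrays (15 residual degrees of freedom), two-sided, with Benjamini-Hochberg adjustment. The number of arrays limits the precision (median SE of a change 0.13). Cage mates are not known and were treated as independent. Correlations used 100000 permutations within diets (scipy 1.17.1, numpy 2.4.6). Members, gene lists and alternatives were chosen with earlier results of these data known. All members were named, and from each pathway list the 2 smallest p per comparison; cell markers are named after their values were seen. The fits were tested on simulated data. Alternatives changed scaling, filter, added constant, probe set rule, model and mice.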

Additional observations from a re-analysis of the deposited data

Results flagged for a closer look

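In 42 groups of 6 mice (14 probe sets in 3 diets), 2 held a mouse set apart from the others by more than Dixon's 95% critical value for 6 values, and chance gives about 1 in 20. Both were control replicate 3 for Cyp7b1. On the brightest Cyp7b1 probe set it stood at 11.21 and the other controls at 12.47 to 12.79, a gap of 0.796 of the range. On the second probe set it stood at 10.37 and the others at 11.73 to 12.25, a gap of 0.725 of the range. These probe sets measure the same gene in the same RNA, so the pair is 1 observation. That mouse had an acute phase mean of 9.80, the lowest of the controls.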

How the results depend on the processing

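Over 870 alternative values of the 30 member differences none passed, and 20 of the 30 kept their direction under every alternative; all members of the F-test also missed in each. Genes passing in 1% against control numbered 0 as deposited, after a median shift, with probe sets averaged, with the replicate block and with only the 12 arrays compared, 2 over every probe set, 12 with the acute phase covariate and 0 to 3 with 1 mouse left out. In 0.05% against control 1 passed over every probe set, and 0 to 1 with 1 mouse left out; in 1% against 0.05%, 2 at an adjusted p under 0.10, 10 with only the 12 arrays, and 0 to 1. Of unadjusted calls in 1% against control 48.9% were higher, 21.8% as deposited; in 0.05% against control 48.0%, 34.7% after a median shift; in 1% against 0.05% 55.6%, 34.04% as deposited and 69.7% after a median shift.

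These directions turned, with a size inside the error in each case. As deposited in 1% against control: Cyp7b1 -0.0662, Nr1h4 -0.00836, Abcb11 -0.0541; in 0.05% against control: Cyp27a1 -0.0330, Slc10a1 -0.0141. After a median shift: Cyp7b1 -0.0151 and Abcb11 -0.00301 (1% against control), Cyp27a1 -0.0573 and Slc10a1 -0.0385 (0.05% against control), Baat 0.0187 (1% against 0.05%). With probe sets averaged, 1% against control: Cyp27a1 0.00851, Cyp7b1 -0.0596. With the acute phase covariate: Cyp7b1 -0.0543 (1% against control), Slc10a1 -0.0142 (0.05% against control). With 1 mouse left out, 1% against control ranged from -0.0243 to 0.0739 for Abcb11, -0.20 to 0.12 for Cyp7b1, -0.0635 to 0.00996 for Cyp27a1, -0.0436 to 0.145 for Nr1h4 and -0.0696 to 0.0114 for Baat; 0.05% against control from -0.0226 to 0.0508 for Cyp27a1, -0.0343 to 0.119 for Slc10a1, -0.13 to 0.25 for Cyp8b1 and -0.0754 to 0.00563 for Baat; and 1% against 0.05% from -0.0493 to 0.0413 for Baat. The cause was not tested.

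Members above the 95th percentile of spread numbered 4, and 3 as deposited, with probe sets averaged and with the acute phase covariate, 3 to 4 with 1 mouse left out, and 0 with 1 added, where dim genes scatter more. Relations passing numbered 8 as deposited, on values without a common scale, and 0 to 1 with 1 mouse left out (Cyp27a1 with Cyp7b1, without 0.05% replicate 2). Signs turned for Cyp7a1 with Nr0b2 (0.36 in controls, 0.0718 at 0.05%), Cyp8b1 with Nr0b2 (-0.89 at 0.05%, -0.56 at 1%), Nr0b2 with Nr1h4 (-0.55 and -0.31) and Cyp7b1 with Slc10a1 (0.45 at 1%); with 1 mouse left out these ranged from -0.358 to 0.0996 for the first, -0.143 to 0.309 for the next and -0.122 to 0.154 for the one after.

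Same replicate numbers did not pair the arrays: over 18 pairs the correlation of deviations ran from -0.46 to 0.31 and 3 of 18 arrays correlated best with their own number. The replicate block made the count of genes passing 0 in each comparison and changed no member's call.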
